A study of Mus musculus with 22 samples.

Results

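The genes described here encode the proteins of the cytosolic ribosome and their close copies, measured in the hypothalamus of mice carrying a tumour. Members were the genes whose array symbol was Rplp0, Rplp1, Rplp2 or Rpsa, or began with Rpl or Rps and a digit. Symbols of the ribosomal protein S6 kinases, Rps19bp1 and symbols of pseudogenes ending in -ps were left out. Only probe sets naming a single gene were used, and each gene was read from its brightest probe set, by the mean of the 22 arrays. This gave 75 of 18820 genes, namely 25 genes of the small subunit, 42 of the large subunit and 8 paralogs or retroposed copies. Of 77 genes that encode canonical ribosomal proteins under these symbols, 67 were covered, and the others were not analysed here. This rule reads symbols and mean signal rather than differences, but it was set with earlier results of these data known.

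The series concerns the food intake of mice with tumour cachexia and serotonin signalling in the hypothalamus. All 22 animals were male C57BL/6 mice, 6 weeks old at inoculation, with 1 array of hypothalamic RNA per mouse. The tumour-bearing mice had received Lewis lung carcinoma cells, a transplantable mouse tumour, in the muscle of a hind leg, and were killed on day 10 (n = 5), day 14 (n = 7) or day 17 (n = 6). The control group was killed on day 14 (n = 4), and what the controls were injected with is not given in the sources used here. Tumour and day therefore cannot be told apart in the comparisons of days 10 and 17 with control. RNA came from bulk tissue, so fewer cells of a type and less RNA per cell cannot be told apart in any result below. All levels and differences are on a log2 scale.

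The ribosome is built from a small subunit, which reads the mRNA, and a large subunit, which joins amino acids. Cells make its proteins in nearly equal numbers, and their mRNAs are among the most abundant in any tissue. Most of these mRNAs start with a run of pyrimidines, the 5′ terminal oligopyrimidine (TOP) tract, through which the growth-signalling kinase complex mTORC1 and the protein LARP1 control how much of the mRNA is translated. An mRNA level is therefore not a measure of ribosomal protein synthesis.

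Promoter windows show this tract where the RefSeq start of the transcript lies in or before it. RefSeq windows (GRCm38.p6, 250 bases before to 50 bases after the start) were found for 61 of the 75 genes, 73 windows in all, and Rps20 was not matched. A run of 7 or more C or T within 20 bases before to 20 bases after the start was present in 54.8% of the 73 windows and in 24.3% of 32851 windows of all genes. These shares also count runs that end before the start, as in Rps27l, and so are not shares of TOP tracts. Printed below are 60 bases, 40 before and 20 after the start, of 10 members among those described in full, with the longest pyrimidine run near the start in capitals. Where runs tied in length, as in Rps7, only the first is in capitals.
Rps3, chr7:99483690-99483749, minus strand: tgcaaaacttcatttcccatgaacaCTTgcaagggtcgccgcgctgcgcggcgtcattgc
Rps7, chr12:28635934-28635993, minus strand: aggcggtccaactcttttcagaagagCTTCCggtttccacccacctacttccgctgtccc
Rps23, chr13:90923082-90923141, plus strand: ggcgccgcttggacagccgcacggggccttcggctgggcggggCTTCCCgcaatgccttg
Rps24, chr14:24490638-24490697, plus strand: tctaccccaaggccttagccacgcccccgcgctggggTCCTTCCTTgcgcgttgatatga
Rpsa, chr9:120127726-120127785, plus strand: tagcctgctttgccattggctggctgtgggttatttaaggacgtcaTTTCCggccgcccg
Rpl12, chr2:32961672-32961731, plus strand: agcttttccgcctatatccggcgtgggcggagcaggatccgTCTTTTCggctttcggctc
Rps27l, chr9:66946046-66946105, plus strand: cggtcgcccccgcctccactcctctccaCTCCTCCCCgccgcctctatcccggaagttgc
Rpl10l, chr12:66284382-66284441, minus strand: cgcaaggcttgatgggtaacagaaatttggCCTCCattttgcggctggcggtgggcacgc
Rpl14, chr9:120571477-120571536, plus strand: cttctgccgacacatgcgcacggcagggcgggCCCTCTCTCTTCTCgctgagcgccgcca
Rplp2, chr7:141447611-141447670, plus strand: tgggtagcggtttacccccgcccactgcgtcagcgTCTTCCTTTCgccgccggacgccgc

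The run was 14 bases long in Rpl14, 10 in Rplp2 and 9 in Rps24 and Rps27l, against 5 in Rpl10l and 3 in Rps3. It began 3 bases before the start in Rps24 and at base 7 of the transcript in Rpsa. In Rps27l, Rpl10l, Rps7 and Rps3 it began 12, 10, 14 and 15 bases before the start and also ended before it. In these genes the marked run lies outside the RefSeq transcript and is not shown to be a TOP tract. Other short motifs were counted over the whole 300-base windows on both strands. CCGGAAG, the core bound by ETS factors, was present in 37.0% of member windows and 8.9% of all windows. GGGCGG, the core bound by Sp1, was present in 57.5% and 35.7%, and GCCATNTT, the YY1 motif, in 21.9% and 6.1%. TATAAA, the TATA box, was present in 9.6% and 13.6%. None of these motifs contains another, and a match of letters is a description of the windows only.

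The arrays were alike in overall level, with array medians between 5.27 and 5.34, and 0 pairs of arrays were identical. The labels name no batch. The accession order splits the arrays into a first run of 9 and a later run of 13, each holding all 4 groups. Over the 75 genes, the mean level was 9.12 in the first run and 9.16 in the later one. Tumour day 10 replicate 1 and tumour day 14 replicate 1, both of the first run, stood apart for several members, and printed differences that they turned or moved by over 1.5 times are given without them as well. In all, 72 of the 75 genes had a mean above 3.87, a measure of background taken from odorant and pheromone receptor probe sets, and Rpl3l, Rpl10l and Rpl39l did not.

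The ribosomal protein genes as a group differed little between tumour-bearing and control mice. On day 10, limma called 0 of the 75 genes at an adjusted p below 0.05, against 0.106% of all genes, and 2 had an unadjusted p below 0.05. On day 14 it called 0, against 0.218% of all genes, with 5 at an unadjusted p below 0.05. On day 17 it called 1, Rps20, which was higher, against 1.12% of all genes, with 9 at an unadjusted p below 0.05. Over all genes, 10.7%, 10.5% and 16.6% had an unadjusted p below 0.05 on the 3 days. With both directions counted, the members' shares in this fit lay below this background. All of these 2, 5 and 9 members were higher in tumour-bearing mice, while over all genes 992, 806 and 1154 were higher and 1022, 1164 and 1977 lower. With only higher genes counted, the members' share was below that of all genes on day 10 and above it on days 14 and 17. That difference in shares was not tested. The shares also depended on the processing. After a second quantile normalization, 10, 12 and 21 members had an unadjusted limma p below 0.05, all higher. Over all 18820 genes the counts were 1635, 1892 and 2749, so the members' shares then lay above the background. With an intensity trend in the variance, 5, 10 and 14 members did, against 2056, 2092 and 3272 genes. There the members' share was below the background on day 10 and above it on days 14 and 17. One call among 75 is near the background share. The pooled SD between mice of a group had a median of 0.084 over the members and was below 0.1 in 48 of them. The 95% interval of the day 17 difference lay within 0.25 log2 units of zero for 60 of the 75 genes and within 0.5 for 74, the exception being Rplp2.

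Small differences leaned upward. A higher mean than in controls was found for 45 of 75 genes on day 10, 62 on day 14 and 58 on day 17, and the 3 comparisons share the same 4 controls. Over all genes the shares were 50.3%, 48.0% and 46.3%. The median log2 difference of the members was 0.021, 0.044 and 0.055 on the 3 days, against 0.0006, -0.0046 and -0.011 over all genes. In the small subunit 22 of 25 genes had a higher mean on day 17 (median 0.072), and in the large subunit 30 of 42 did (median 0.036). The difference between the subunits was not tested. Without control replicate 1 the counts were 37, 50 and 44 of 75, and the medians were -0.0023, 0.022 and 0.040. The excess of higher over lower means on day 10 thus rested on that array. The shares of other genes in that fit were not set beside these counts. With the thalamus marker mean in the fit as a covariate the counts were 40, 48 and 45 and the medians 0.0042, 0.027 and 0.037. With the red cell marker mean they were 49, 63 and 56, and 0.019, 0.042 and 0.047. The mean over the 75 genes was 9.05, 9.12, 9.11 and 9.17 in the 4 controls. It was 9.10, 9.14, 9.14, 9.16 and 9.13 in the mice of day 10. On day 14 it had a lowest value of 9.09 and a highest of 9.19, and on day 17 it ran from 9.13 to 9.19. Every tumour-bearing group overlapped the controls, and control replicate 1 was the lowest of all arrays. Group means were 9.11 ± 0.05 (SD, n = 4), 9.14 ± 0.02 (n = 5), 9.16 ± 0.04 (n = 7) and 9.16 ± 0.02 (n = 6). Within the first run of arrays, which holds a single control, the median differences were 0.066, 0.056 and 0.091, and in the later run 0.0046, 0.056 and 0.056. The plot of the mean per mouse shows this spread.

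**Figure D1:**
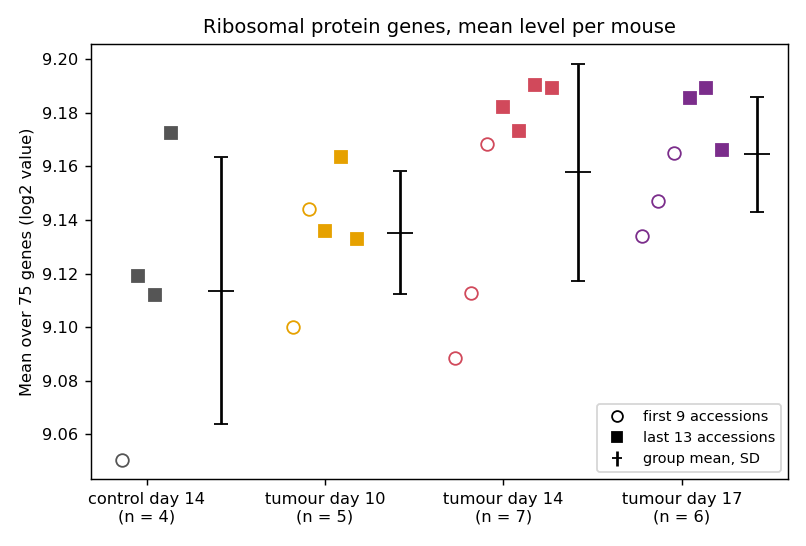
Mean log2 value over the 75 ribosomal protein genes in each mouse, by group, with open circles for the first 9 arrays by accession, filled squares for the later 13, and bars for the group mean and SD. The lowest value is control replicate 1 at 9.05, and the 4 controls reach 9.17, above all day 10 mice (highest 9.16) and below the highest mice of days 14 and 17 (9.19).

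The upward lean is set here beside genes of a similar signal, in tiers chosen after the values were seen. Among 1428 other genes with a mean above 9, 29.8%, 26.0% and 25.4% had a higher mean than in controls on days 10, 14 and 17, with median differences of -0.037, -0.041 and -0.049. Of the 46 members above 9, 31, 38 and 36 had a higher mean, with medians of 0.027, 0.042 and 0.056. Among 5127 other genes between 7 and 9 the shares were 34.9%, 35.8% and 32.8%, and of 18 members 9, 16 and 13 were higher. Between 3.87 and 7, 3, 6 and 6 of 8 members were higher, against 3341, 3372 and 3012 of 7163 other genes, so on day 10 the members' share (37.5%) was below that of the other genes (46.6%). Low-signal genes leaned the other way: of 5027 other genes at or below 3.87, 76.7%, 67.5% and 71.7% were higher. No test was made of these shares.

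**Figure D2:**
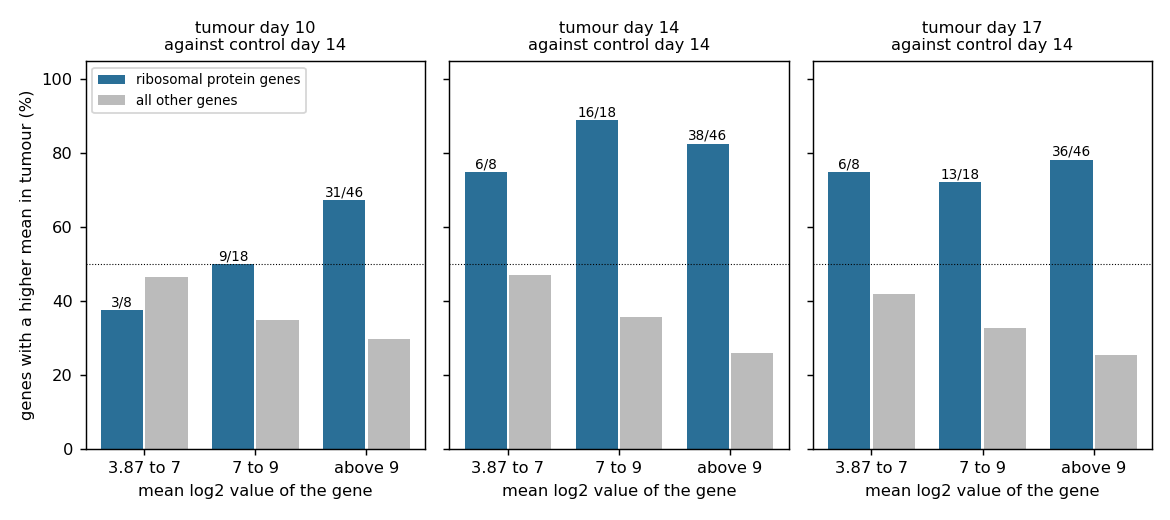
Percent of genes with a higher mean in tumour-bearing mice than in controls on each day, for ribosomal protein genes (blue, with counts) and all other genes (grey), in 3 tiers of mean log2 value. Above 9, the blue bars stand at 67.4%, 82.6% and 78.3% and the grey bars at 29.8%, 26.0% and 25.4%.

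Some markers of other tissue and cells also moved with the groups, and only the thalamus and red cell marker means were entered as covariates; the part of the other markers in the results on ribosomal protein genes was not tested. Over all genes, 0.106%, 0.218% and 1.12% were called on days 10, 14 and 17, in either direction. Of 17 measured hypothalamus markers, 16 were above the background measure, with 0, 1 and 2 called higher and 0, 0 and 1 called lower on days 10, 14 and 17. Thalamus markers, of a neighbouring region, had a lower mean than in controls for 21, 20 and 21 of 22 genes on days 10, 14 and 17, with 0 called. Their mean level per array had its widest range in controls, from 6.58 to 7.46, against 6.55 to 6.89, 6.52 to 7.17 and 6.53 to 6.98. All 9 neuron markers had a lower mean on each day, with 0, 0 and 1 called lower. Their array means ran from 10.33 to 10.45 in controls and from 10.18 to 10.34 on day 17. Of 7 red cell markers, 3 of them above background, 0, 2 and 3 were called higher. Red cell array means ran from 3.59 to 4.05 in controls and from 4.01 to 4.40, 4.03 to 4.62 and 4.29 to 4.96 in the tumour-bearing groups. Meningeal fibroblast markers had a higher mean for 12, 10 and 10 of 12 genes, with 0 called, and array means that reached 6.17 in controls and 6.84 on days 10 and 14. Microglia markers had a higher mean for 11, 8 and 1 of 14 genes, with 1 called lower on day 14 and 1 on day 17. Endothelial markers had a higher mean for 7, 6 and 7 of 9 genes, with 0, 1 and 1 called higher.

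Rps20 encodes uS10, a protein of the head of the small subunit. Its log2 values were 10.37, 10.45, 10.43 and 10.39 in the controls. They were 10.65, 10.52, 10.62, 10.63 and 10.54 on day 10. In the mice of day 14 the lowest, median and highest were 10.49, 10.54 and 10.59, and on day 17 they were 10.54, 10.61 and 10.63. Every tumour-bearing mouse lay above every control on all 3 days. Rps20 rose on day 17 by 0.19 ± 0.04 (SE, log2, 1.14-fold with a 95% interval of 1.08 to 1.21, limma adjusted p = 0.0264). Its difference was 0.18 ± 0.04 on day 10 (adjusted p = 0.127) and 0.14 ± 0.04 on day 14 (adjusted p = 0.178), neither of which passed. The day 17 call was lost without control replicate 1, 2 or 3 and without tumour day 17 replicate 3, 4 or 5, where the adjusted p ran up to 0.106 and the difference stayed between 0.18 and 0.20. It was also lost with a covariate for the mean of the thalamus markers (0.18, adjusted p = 0.0729) and with one for the red cell markers (0.15, adjusted p = 0.999). Red cell array means ran from 3.59 to 4.05 in controls and from 4.29 to 4.96 on day 17, without overlap. In that fit the covariate and the group therefore cannot be fully told apart. The gene had a single probe set, so no second measurement on the array bears on it.

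Complete separation from the controls was seen for few other members. On day 10 it was Rps20 alone, 1 of 75, against 2.21% of all genes. On day 14 it was Rps20 and Rpl36, 2 of 75, against 0.776%. On day 17 it was Rps20, Rps7 and Rpl17, 3 of 75, against 1.66%. In the other direction 0 members had every tumour-bearing mouse below every control on any day, against 2.24%, 1.06% and 3.3% of all genes.

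Among the other small subunit genes, Rps7, Rps23 and Rps3 had the smallest p of the F test over the 4 groups after Rps20. Rps7, which is mutated in some people with the red cell disorder Diamond-Blackfan anaemia, had log2 values of 9.95, 10.03, 9.95 and 10.01 in controls. It had 9.92, 10.06, 10.18, 10.21 and 9.99 on day 10. Its lowest, median and highest values were 9.89, 10.10 and 10.21 on day 14, and 10.07, 10.13 and 10.23 on day 17. All 6 mice of day 17 were above the controls, while the other tumour-bearing groups overlapped them. The differences were 0.09 ± 0.06, 0.11 ± 0.06 and 0.16 ± 0.06 (SE), with a limma adjusted p of 0.188 on day 17. Without the 2 arrays that stood apart they were 0.13, 0.14 and 0.16, with an adjusted p of 0.092 on day 17.

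Rps23 encodes uS12, which lies at the decoding centre. Its values were 9.34, 9.31, 9.34 and 9.44 in controls and 9.54, 9.42, 9.37, 9.39 and 9.38 on day 10. Its lowest, median and highest were 9.37, 9.48 and 9.51 on day 14, and 9.43, 9.47 and 9.51 on day 17. Control replicate 4 lay within the range of all tumour-bearing groups, and the other 3 controls lay below them. The differences were 0.07 ± 0.05, 0.11 ± 0.04 and 0.11 ± 0.04 (adjusted p = 0.632, 0.381 and 0.205). On day 10 the difference was 0.04 without the 2 arrays.

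Rps3 encodes uS3, at the mRNA entry site. Its values were 9.20, 9.26, 9.31 and 9.40 in controls and 9.56, 9.44, 9.37, 9.51 and 9.36 on day 10. The lowest, median and highest were 9.36, 9.43 and 9.48 on day 14, and 9.30, 9.35 and 9.55 on day 17. Only control replicate 4 reached the range of the day 10 and day 14 mice. The differences were 0.16 ± 0.06, 0.13 ± 0.05 and 0.08 ± 0.06, with adjusted p of 0.34, 0.398 and 0.469.

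**Figure D3:**
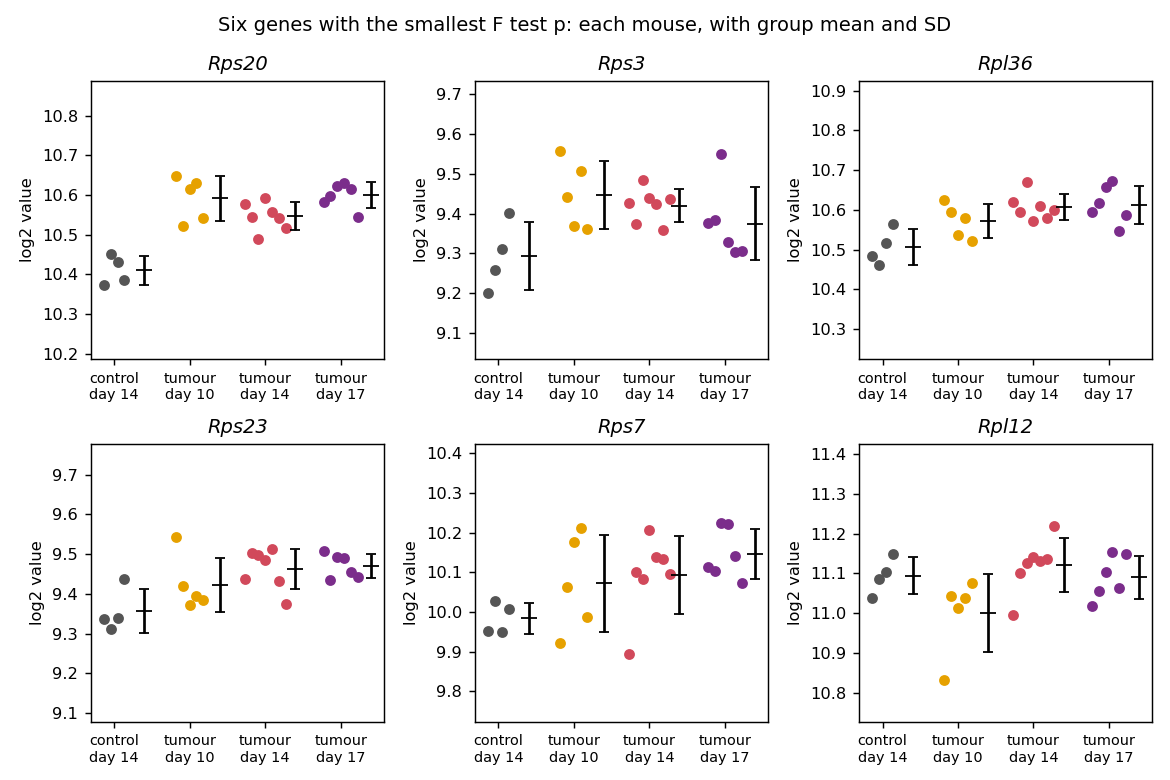
Log2 values in every mouse for the 6 members with the smallest F test p (Rps20, Rps3, Rpl36, Rps23, Rps7 and Rpl12), one panel each over a span of 0.7 log2 units, with group means and SDs beside the points. In Rps20 the 4 controls end at 10.45, below the lowest tumour-bearing mouse at 10.49, and in Rpl12 a day 10 mouse at 10.83 lies apart from its group.

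Rps28 and Rps9, also of the small subunit, reached an unadjusted p below 0.05 on a single day each. Rps28 was higher by 0.13 ± 0.06 on day 14 (limma adjusted p = 0.43), and Rps9 by 0.15 ± 0.07 on day 17 (adjusted p = 0.267). Rps6, whose protein is phosphorylated by the S6 kinases downstream of mTORC1, differed by 0.04 ± 0.06, 0.04 ± 0.06 and 0.02 ± 0.06. Its day 17 interval ran from -0.10 to 0.14, and its values ran from 11.87 to 12.05 in controls and from 11.89 to 12.14 on day 17, so the groups overlapped throughout.

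Rpsa and Rps24 had the lowest differences of the small subunit on day 10. Rpsa, first described as a laminin receptor and part of the small subunit, had values of 9.08, 9.22, 9.16 and 9.35 in controls. On day 10 it had 8.68, 9.08, 9.16, 9.17 and 9.18, the first of these in tumour day 10 replicate 1. On the later days the lowest, median and highest were 8.92, 9.21 and 9.30 on day 14, and 8.95, 9.12 and 9.29 on day 17. Its differences were -0.15 ± 0.10, -0.05 ± 0.09 and -0.09 ± 0.09 (adjusted p = 0.608, 0.874 and 0.653), and without the 2 arrays they were -0.06 on day 10 and -0.014 on day 14. Its 5 probe sets gave day 17 differences from -0.09 to 0.09, and the one with the highest mean was the lowest of them.

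Rps24, another gene of Diamond-Blackfan anaemia in people, had values of 8.55, 8.59, 8.56 and 8.72 in controls. On day 10 it had 8.27, 8.58, 8.57, 8.56 and 8.57. The lowest value was 8.29 on day 14, in replicate 1, where the other mice reached from 8.55 to 8.70, and the day 17 mice lay between 8.50 and 8.65. The day 10 difference was -0.10 ± 0.07 (adjusted p = 0.662) with all arrays and -0.04 ± 0.05 without the 2. The day 14 difference was -0.04 ± 0.07 with all arrays and 0.0055 ± 0.05 without them, so its sign rested on them.

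In the large subunit, Rpl36 had the smallest F test p. Rpl36 encodes eL36, a structural protein of the subunit. Its values were 10.48, 10.46, 10.52 and 10.56 in controls and 10.63, 10.59, 10.54, 10.58 and 10.52 on day 10. The lowest, median and highest were 10.57, 10.60 and 10.67 on day 14, and 10.55, 10.61 and 10.67 on day 17. All 7 mice of day 14 lay above the controls, and the mice of days 10 and 17 overlapped them. The differences were 0.07 ± 0.04, 0.10 ± 0.04 and 0.11 ± 0.04, with limma adjusted p of 0.604, 0.364 and 0.196. All 10 of its probe sets had a higher mean on days 14 and 17, by 0.03 to 0.13 and by 0.03 to 0.21.

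The stalk of the large subunit, which recruits the elongation factors, is formed by Rplp0, Rplp1 and Rplp2 beside Rpl12 at its base. Rplp0 was higher by 0.03 ± 0.05, 0.02 ± 0.05 and 0.01 ± 0.05 on days 10, 14 and 17, and Rplp1 differed by -0.04 ± 0.05, -0.04 ± 0.05 and -0.05 ± 0.05. The day 17 intervals ran from -0.08 to 0.11 for Rplp0 and from -0.16 to 0.06 for Rplp1. Without the 2 arrays the day 10 differences were 0.0068 for Rplp0 and -0.07 for Rplp1. None of these passed, and all groups overlapped. The values given for Rplp1 are those of its brightest probe set. All 3 of its probe sets had a lower mean on each day. Their differences ran from -0.25 to -0.04 on day 10, -0.24 to -0.04 on day 14 and -0.25 to -0.05 on day 17. The dimmer probe sets were not tested singly.

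Rplp2 had the highest differences of all members on days 10 and 17 and also one of the widest spreads. Its values were 4.77, 5.19, 5.37 and 5.32 in controls, and 5.35, 5.64, 5.59, 5.26 and 5.24 on day 10. The lowest, median and highest were 5.17, 5.30 and 5.52 on day 14, and 5.07, 5.33 and 5.93 on day 17. Control replicate 1 was the lowest of all mice, and the remaining controls lay among the tumour-bearing mice. The differences were 0.25 ± 0.15, 0.15 ± 0.14 and 0.22 ± 0.14 (adjusted p = 0.548, 0.726 and 0.443), and without control replicate 1 they were 0.12, 0.022 and 0.088. Its single-gene probe set had a within-group SD of 0.23, against a median of 0.084 over the members. That probe set had a mean of 5.33. A brighter one naming Rplp2 together with Wdr89 (mean 5.95) differed by 0.10, 0.018 and 0.13 on the 3 days.

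Rpl12 encodes uL11. Its values were 11.04, 11.09, 11.10 and 11.15 in controls and 10.83, 11.04, 11.01, 11.04 and 11.08 on day 10. Day 14 had a lowest, median and highest of 11.00, 11.13 and 11.22, and day 17 of 11.02, 11.08 and 11.15. The day 10 difference from control was -0.09 ± 0.05, or -0.05 ± 0.04 without the 2 arrays. Day 14 was higher than day 10 by 0.12 ± 0.05 (unadjusted p = 0.0177, limma adjusted p = 0.601), or by 0.10 ± 0.04 without the 2 arrays.

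Rpl5 and Rpl11 bind the 5S ribosomal RNA and, when ribosome assembly is disturbed, the p53 regulator Mdm2. Rpl11 was higher by 0.08 ± 0.05, 0.10 ± 0.05 and 0.11 ± 0.05 on the 3 days, with an adjusted p of 0.279 on day 17, and by 0.04 on day 10 without the 2 arrays. Its values ran from 9.41 to 9.50 in controls and from 9.48 to 9.59 on day 17. Rpl5 was higher by 0.06 ± 0.06, 0.07 ± 0.06 and 0.06 ± 0.06, with values from 9.64 to 9.88 in controls and from 9.67 to 9.97 on day 17. The groups overlapped in both genes. Rpl7, Rpl17 and Rpl36a also reached an unadjusted p below 0.05 on day 17, with differences of 0.12 ± 0.06, 0.09 ± 0.04 and 0.11 ± 0.05 and adjusted p of 0.28, 0.279 and 0.294.

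Rpl14 and Rpl34 were named for the change from day 10 to day 17. Rpl14 differed by 0.24 ± 0.14 (adjusted p = 0.652), with values of 5.30, 5.65, 5.59, 5.20 and 5.26 on day 10 and a lowest, median and highest of 5.26, 5.63 and 5.92 on day 17. Rpl34 differed by -0.08 ± 0.07 (adjusted p = 0.792), with values of 9.20, 8.83, 8.90, 8.90 and 8.86 on day 10 and 8.71, 8.85 and 9.01 as the lowest, median and highest on day 17. The Rpl34 difference was -0.01 ± 0.06 without the 2 arrays.

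**Figure D4:**
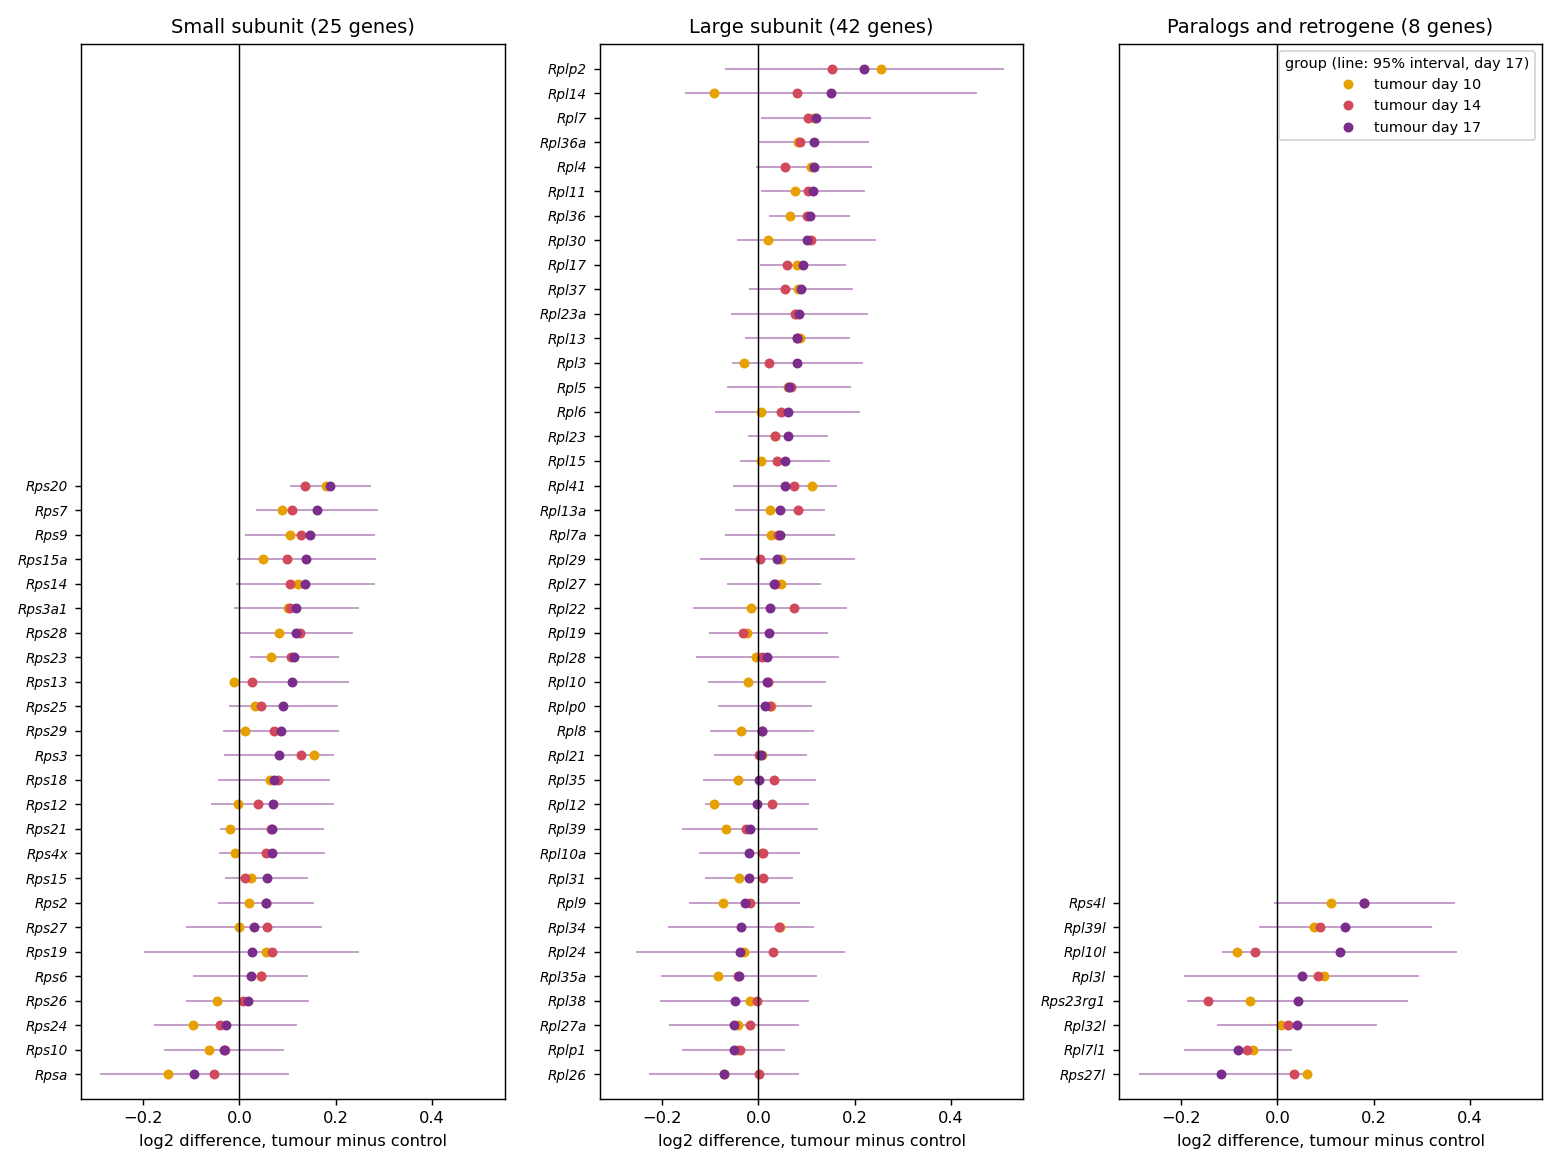
Log2 difference from control on days 10, 14 and 17 (points) for each of the 25 small subunit genes, 42 large subunit genes and 8 paralogs or retroposed copies, with the 95% interval of the day 17 difference as a line. Most points lie between -0.1 and 0.2, 22 of 25, 30 of 42 and 6 of 8 day 17 points lie above 0, and Rplp2 and Rpl14 have the widest large subunit intervals.

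The paralogs had no call on any day. Rpl3l, known from heart and skeletal muscle, Rpl10l and Rpl39l, both known from male germ cells, were at or near background with means of 3.02, 3.82 and 2.93 in controls. Rpl3l differed from control by 0.10 ± 0.12, 0.09 ± 0.11 and 0.05 ± 0.12 on the 3 days, and without the 2 arrays by -0.0006 on day 10 and 0.027 on day 14. Rpl39l differed by 0.08 ± 0.09, 0.09 ± 0.08 and 0.14 ± 0.09, and without the 2 arrays by 0.14 on day 10 and 0.05 on day 14. Their parent genes Rpl3, Rpl10 and Rpl39 were well measured and differed by 0.08 ± 0.07, 0.02 ± 0.06 and -0.02 ± 0.07 on day 17. Rpl10l differed by 0.21 ± 0.11 between days 17 and 10 (adjusted p = 0.617), with values of 3.77, 3.84, 3.64, 3.79 and 3.67 on day 10. On day 17 its lowest, median and highest were 3.81, 3.95 and 4.17, and in controls it had 3.81, 3.92, 3.79 and 3.76. These values lie around the background measure of 3.87, so their order carries little weight.

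Rps27l, a paralog of Rps27 that p53 induces, had the largest negative difference of all members on day 17. Its values were 7.43, 7.39, 7.41 and 7.19 in controls and 7.33, 7.41, 7.35, 7.44 and 7.55 on day 10. In later groups the lowest, median and highest were 7.15, 7.36 and 7.60 on day 14, and 7.09, 7.21 and 7.43 on day 17. All mice of day 17 but replicate 2 lay below the first 3 controls, and control replicate 4 lay among them. The day 17 difference was -0.12 ± 0.08 against control (adjusted p = 0.495), -0.15 ± 0.07 against day 14 and -0.18 ± 0.08 against day 10 (unadjusted p = 0.0302, limma adjusted p = 0.579). Rps27 itself differed by -0.0011 ± 0.07, 0.06 ± 0.07 and 0.03 ± 0.07 from control on the 3 days, and by 0.021 on day 10 without the 2 arrays.

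Rps4l, a copy of Rps4x that RefSeq classes as a transcribed pseudogene, had values of 7.02, 7.25, 7.14 and 7.52 in controls. It had 7.34, 7.37, 7.28, 7.34 and 7.41 on day 10, and on day 17 its lowest, median and highest were 7.23, 7.41 and 7.63. Its differences were 0.11 ± 0.09, 0.18 ± 0.09 and 0.18 ± 0.09 (adjusted p = 0.697, 0.482 and 0.316), and those of Rps4x were -0.01 ± 0.06, 0.05 ± 0.05 and 0.07 ± 0.05, with 0.016 on day 10 without the 2 arrays. Control replicate 4 was higher than most tumour-bearing mice in Rps4l. How far the probes of such copies also bind the parent mRNA was not tested. Rpl7l1, a relative of Rpl7, differed by -0.05 ± 0.06, -0.06 ± 0.05 and -0.08 ± 0.05 (-0.03 on day 10 without the 2 arrays), with values from 8.17 to 8.27 in controls and from 7.97 to 8.22 on day 17. Rpl32l differed by 0.04 ± 0.08 on day 17. Rps23rg1, a retroposed copy of Rps23, differed by -0.14 ± 0.11 on day 14 (adjusted p = 0.666), with values from 3.97 to 4.23 in controls and from 3.63 to 4.18 on day 14.

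Among tumour-bearing mice, the days differed little. Day 14 against day 10 gave 0 calls among members, against 0.00531% of all genes, and 1 member, Rpl12, had an unadjusted p below 0.05, against 7.13% of all genes. Day 17 against day 14 gave 0 calls, against 0.0% of all genes, and 1 member, Rps27l, had an unadjusted p below 0.05, against 4.17%. Day 17 against day 10 gave 0 calls, against 0.0% of all genes, and a straight line over the 3 days also gave 0 against 0.0%. In both of these limma comparisons Rps13, a small subunit gene, was higher and Rps27l lower at an unadjusted p below 0.05, against 8.3% and 8.46% of all genes. Rps13 was higher on day 17 than on day 10 by 0.12 ± 0.05 (unadjusted p = 0.0367, adjusted p = 0.591). Without tumour day 10 replicate 1, 0 members were higher at an unadjusted p below 0.05 in that comparison, and without both arrays that stood apart the Rps13 difference was 0.08 ± 0.05. Against day 10, 56 of the 75 genes had a higher mean on day 17 with a median difference of 0.032, and over all genes the share was 43.5% and the median -0.015. Without tumour day 10 replicate 1 the count was 53 and the median 0.019.

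Many members were measured by several probe sets, which can also bind processed copies of the same gene. The 75 genes had 386 single-gene probe sets, 56 genes had more than 1, and 1 gene, Rpl21, had 41. Some held the same values, leaving 376 distinct profiles. On day 17, 320 of the 386 had a higher mean than in controls, with a median difference of 0.048. Of the 56 genes with several probe sets, 35 had all of them higher, 6 had all of them lower and 15 were mixed. Rplp1 was lower in all 3 of its probe sets, by differences of -0.25 to -0.05, and Rps7 was higher in all 3, by 0.13 to 0.17. Another 63 probe sets named a member among several genes, of which 21, 44 and 49 had a higher mean on days 10, 14 and 17 (medians -0.014, 0.017 and 0.024). Of the single-gene probe sets, 260 and 316 had one on days 10 and 14, so on day 10 the 2 kinds leaned opposite ways. These are counts of probe sets and not of genes. Of the 63, 10 named Rpl30 and 11 named Rpl35a, and some of those for Rpl35a held the same values. For Rpl30 the single-gene probe set (mean 6.35) gave 0.10 on day 17. The 10 probe sets naming it with another gene had means from 10.13 to 11.08 and gave 0.0040 to 0.040. For Rpl35a the single-gene probe set (mean 6.55) gave -0.04, and the 11 others (means 9.36 to 10.49) gave 0.0075 to 0.059. The value standing for these 2 genes thus came from a dim probe set.

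**Figure D5:**
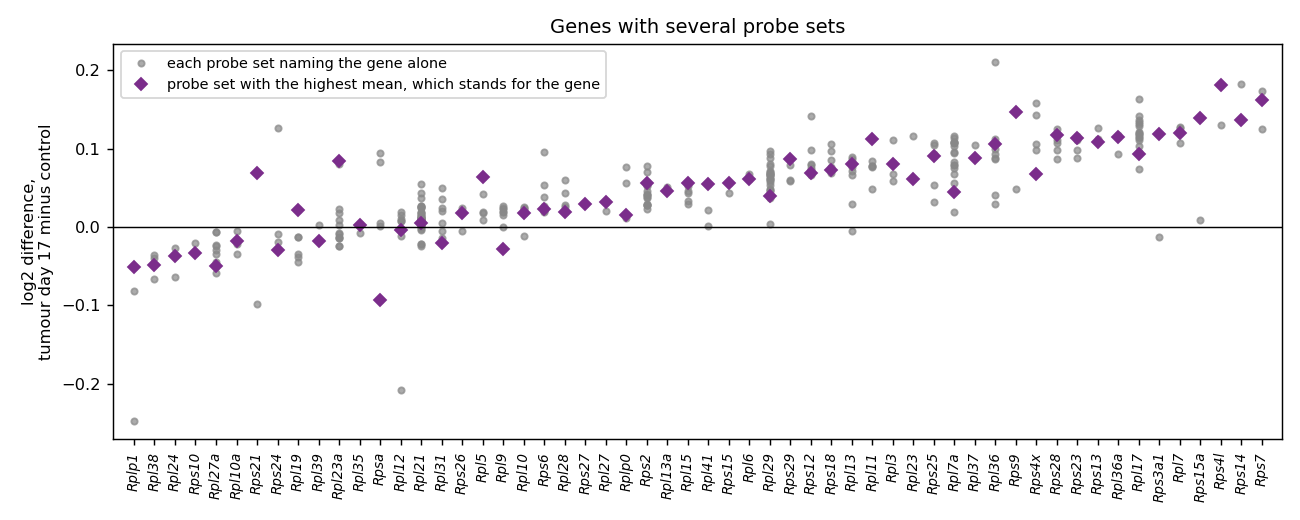
Log2 difference of tumour day 17 from control for each single-gene probe set (grey) of the 56 genes with more than 1, ordered by their median, with the probe set that stands for the gene as a diamond. The probe sets of 35 genes all lie above 0 and those of 6 genes all lie below 0, and the 5 probe sets of Rpsa span -0.09 to 0.09.

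Other genes of the translation machinery were read from lists. Over all genes, 0.106%, 0.218% and 1.12% were called on days 10, 14 and 17. Of 15 measured elongation factors and other genes with TOP mRNAs, 2 were called on day 17, both higher, and 0 on days 10 and 14. Eif4b, a cofactor of the mRNA helicase eIF4A, rose by 0.22 ± 0.06 (limma adjusted p = 0.0478), after differences of 0.05 and 0.11 on days 10 and 14. Eif3f, a subunit of initiation factor 3, rose by 0.23 ± 0.06 (adjusted p = 0.0482), after 0.07 and 0.12. Both calls lay just below the threshold of 0.05. The list's median difference was 0.049, 0.066 and 0.12 on the 3 days, and 10, 11 and 10 of the 15 genes had a higher mean. Its array means ran from 9.36 to 9.48 in controls and from 9.48 to 9.61 on day 17.

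Of 48 measured ribosome biogenesis genes, 1 was called higher and 2 lower on day 17, and 0 on the other days. Over all 18820 genes, 82 were called higher and 129 lower on day 17. Ltv1, which helps assemble the head of the small subunit, fell by 0.37 ± 0.06 (limma adjusted p = 0.00281), and Rrp9, a protein of the U3 small nucleolar particle, fell by 0.38 ± 0.07 (adjusted p = 0.0119). Nop14, also needed for the small subunit, rose by 0.21 ± 0.05 (adjusted p = 0.0482), just below the threshold. The list's medians were -0.027, -0.037 and -0.056, with 18, 13 and 17 of 48 genes higher. Of 14 genes of the RNA polymerase I machinery, which transcribes ribosomal RNA, 0 were called on any day, and 0 had an unadjusted p below 0.05 in the comparisons with control. Taf1a and Ttf1 had the smallest F test p there, with day 17 differences of 0.0025 ± 0.06 and -0.07 ± 0.08.

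Of 27 genes of mTORC1 and translational control, 1 was called on day 17, against 1.12% of all genes, and 0 on the other days. It was Eif2ak2, the interferon-induced kinase PKR that phosphorylates the initiation factor eIF2, which rose by 0.40 ± 0.09 (limma adjusted p = 0.0408). Its differences on days 10 and 14 were 0.42 ± 0.10 and 0.26 ± 0.09 (adjusted p = 0.13 and 0.3). The list's median was -0.010 on day 17, with 13 of 27 genes higher. Fau, the ribosomal protein gene eS30 whose symbol lies outside the rule, differed by 0.0015 ± 0.05, -0.0030 ± 0.04 and 0.03 ± 0.05.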

How the data were processed

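Hypothalamic RNA of 22 mice was measured on 1-colour arrays with whole-transcript labelling, per the labels' protocols. The deposited log2 values had been summarised by the authors with RMA, per the submitters' processing notes; no source used here gives its version, the genome build or the annotation. The table held 35556 probe sets, of which 21218 named 1 gene, 1881 several and 12457 none, and no low-value filter was applied. All 18820 genes on the 22 arrays entered 1 linear model of 4 group means (limma 3.58.1, run in R 4.3.3), with contrasts of the means, variances moderated by eBayes with no intensity trend, and 18 residual degrees of freedom. Tests were two-sided, adjusted by Benjamini-Hochberg over all genes, and called at 0.05. The fit was tested on simulated data. The simulated shifts were larger than any difference of a member from control, so that test does not bear on differences this small. Background was the 95th percentile over 1182 olfactory and vomeronasal receptor probe sets. The members, gene lists and tests were chosen with earlier results of these data known, so no pattern here is independent support. Genes given in full were those called, the 6 with the smallest F test p, and the 2 most extreme in each direction on days 10, 14 and 17 against control and on day 17 against day 10; the stalk, 5S and paralog genes with their parents, Rps6 and Rpsa were also named. Of each list of other translation genes, those called (at most 4) were named, or else the 2 with the smallest F test p. Genes with an unadjusted p below 0.05, and Rpl30 and Rpl35a, were named after their values were seen. Alternatives changed variance moderation, weights, scaling, filter, probe set rule, samples, threshold and covariates, added a replicate block, and left out arrays. The number of arrays limits the precision.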

Additional observations from a re-analysis of the deposited data

Results flagged for a closer look

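Among 120 groups of values (29 named genes and the mean over all 75, in 4 groups each), 15 held a value whose gap to its nearest neighbour was large for the range of the group by Dixon's test, which flags about 1 group in 20 by chance. Of these values, 8 came from tumour day 10 replicate 1. That mouse was the lowest of its group in Rpl10 (11.06), Rpl12 (10.83), Rpl39 (11.25), Rps24 (8.27) and Rpsa (8.68), and the highest in Rpl34 (9.20), Rpl3l (3.51) and Rps23 (9.54). Tumour day 14 replicate 1 was the lowest of its group in Rpl7 (8.87), Rps24 (8.29) and Rps7 (9.89). The remaining values were the lowest of Rpl11 in tumour day 17 replicate 4 (9.48), of Rps27l in control replicate 4 (7.19) and of Rps6 in control replicate 1 (11.87), and the highest of Rps3 in tumour day 17 replicate 3 (9.55).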

How the results depend on the processing

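The day 17 count of 1 member, Rps20, became 0 after a second quantile normalization (difference 0.20, limma adjusted p = 0.0621), in a fit limited to the 2 groups compared (adjusted p = 0.109), in the first 9 arrays alone (adjusted p = 0.735), in the later 13 alone (adjusted p = 0.195), and with the thalamus or red cell marker mean as a covariate. The fit limited to 2 groups and the fits of each run hold fewer arrays; the cause of the others was not tested. Leaving out 1 array at a time, in 22 fits, the day 17 count ran from 0 to 1, with 16 fits keeping the call and the median difference between 0.040 and 0.084. The counts of all other comparisons stayed at 0 in those fits, and the medians ran from -0.0023 to 0.042 on day 10 and from 0.022 to 0.069 on day 14. An intensity trend in the variance gave 1 call on day 10, Rps20 (adjusted p = 0.0235). In the first 9 arrays the medians of days 10 and 17 moved to 0.066 and 0.091. Whether the replicate numbers pair the mice was not settled. Of 28 same-numbered pairs, 15 had a correlation of deviations over 0.1 (range -0.19 to 0.35), and no differently numbered pairs were set beside them. With the number as a replicate block the counts were unchanged, and the medians were 0.022, 0.022 and 0.043 on days 10, 14 and 17. The day 10 median was 0.038 after the second quantile normalization, 0.0042 with the thalamus covariate and 0.0075 with several-gene probe sets counted, and the day 14 median was 0.023 with median centring and 0.027 with the thalamus covariate. Among the most extreme and called genes, signs turned in 3 uncalled values under the planned settings: Rps23rg1 on day 14 with the red cell covariate (0.043), Rpsa on day 17 with the mean over its probe sets (0.018), and Rpl34 between days 17 and 10 with several-gene probe sets counted (0.021). Leaving out tumour day 10 replicate 1 and tumour day 14 replicate 1 together, chosen after the data were seen, changed 0 counts of calls. It gave medians of 0.025, 0.054 and 0.055. Among the named genes it turned the sign of several small differences from control. These were Rpl3l, Rpl34, Rpl3, Rpl10, Rps4x, Rps27 and Rps13 on day 10, and Rps24 and Rpl39 on day 14. Members near the background measure have only a bound on their change.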
